A study of Mus musculus with 12 samples.

Results

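The genes described here are 37 mouse genes whose transcripts accumulate as cells replicate DNA and divide: 13 act in S phase or in the entry into it, and 24 act in G2 and mitosis (G2/M). They were taken as a list of gene symbols, and all 37 matched a gene among the 57010 of the deposited count table. All 37 also passed the filter on low counts that left 15943 genes for testing. The list was drawn up knowing that WT ID8 library 3 carried far more of these transcripts than other libraries. The level of that library against the others is given as a description and has no test of its own. It is part of the WT ID8 group in the main fit, so its level enters the fold changes and calls of that group. Fits without it leave out a library singled out for these genes, so neither fit is an independent test of them.

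The 12 RNA-seq libraries came from sorted large peritoneal macrophages of female mice, in 4 groups of 3. Large peritoneal macrophages are resident phagocytes of the peritoneal cavity, here gated as F4/80 high and MHCII low. WT naive and Tim4KO naive cells came from wild-type and Tim4-deficient mice for which the labels name no treatment and no age. WT ID8 and Tim4KO ID8 cells were collected 24 h after intraperitoneal injection of ID8 cells, a mouse ovarian tumour line, into mice that were 8 weeks old. The injected form carried ZsGreen, a fluorescent protein, and OVA. Only ZsGreen+ macrophages were sorted from challenged mice and no such selection was made in naive mice, so challenge and uptake of tumour material cannot be told apart. The labels name the knockout only as Tim4 KO and do not say that each library is a separate mouse, so the p-values measure the spread between these samples, which may be technical.

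Proliferating cells transcribe the 2 classes in sequence. E2F factors switch on S-phase genes as cells leave G1, and complexes that contain MYBL2 and FOXM1 switch on G2/M genes later. Large peritoneal macrophages are long-lived and can renew by local division, so a small cycling share is a known feature of this population. In bulk RNA, fewer cells in the cycle and less of these transcripts per cell cannot be told apart.

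The 2 classes differed in how challenged libraries compared with naive ones. Relative to naive cells, 10 of the 13 S-phase genes had higher levels in all 6 challenged libraries with no overlap between conditions, a pattern found in 13.8% of all tested genes. In the 5 challenged libraries other than WT ID8 3, no G2/M gene was above all naive libraries (15.3% of all genes were), and 7 of 24 were below all 6 (7.01% of all genes were). WT ID8 3 went the other way for G2/M: it was the highest of the 12 libraries for all 24 genes, and for all 13 S-phase genes too, which held for 13.4% of all genes. Within WT, 10 S-phase and 0 G2/M genes were above without overlap (23.3% of all genes). With WT ID8 3 in the group none of the 37 could lie below WT naive without overlap (21.0% of all genes did), so nothing is read from that count. Within Tim4KO, 11 S-phase genes and 1 G2/M gene were above (23.7% of all genes), and 0 S-phase and 9 G2/M genes below (18.1%). Levels are given as CPM, the depth-scaled count of a gene after TMM scaling between libraries.

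The summed level of the 13 S-phase genes was 174.5, 188 and 231 CPM in naive WT libraries 1 to 3 and 318.5, 329 and 1443 CPM after ID8. Tim4KO libraries had 166, 166 and 211 CPM when naive and 403, 515 and 381 CPM after ID8. Every challenged library was thus above every naive one, and WT ID8 3 stood at 4.46 times the mean of WT ID8 1 and 2. The summed level of the 24 G2/M genes was 172, 229.7 and 423 CPM in naive WT libraries and 115, 122 and 3023 CPM after ID8. For Tim4KO it was 151, 327 and 458 CPM when naive and 169, 202 and 162 CPM after ID8. WT ID8 1 and 2 were the lowest of the 12 libraries, WT ID8 3 was 25.5 times their mean, and Tim4KO ID8 overlapped with the lower naive libraries.

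**Figure D1:**
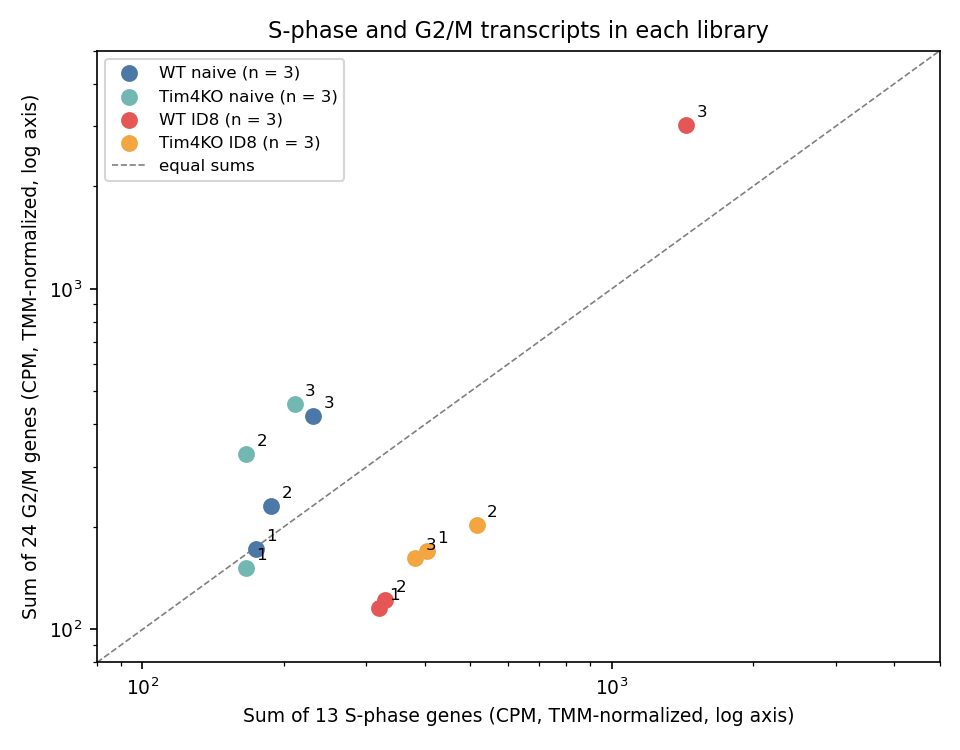
Summed CPM of the 13 S-phase genes (x axis) against summed CPM of the 24 G2/M genes (y axis), both TMM-normalized on log axes, with 1 point per library, the colour for the group and the number for the library. The dashed line marks equal sums, and sums are not divided by gene length. Naive libraries differ mainly along the y axis (151 to 458 CPM), 5 challenged libraries lie to their right at 115 to 202 CPM of G2/M genes, and WT ID8 3 lies alone at 1443 and 3023 CPM.

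The ratio of the G2/M sum to the S-phase sum put these patterns in 1 value per library. WT libraries had 0.987, 1.22 and 1.83 when naive and 0.362, 0.371 and 2.09 after ID8. Tim4KO libraries had 0.911, 1.97 and 2.17 when naive and 0.42, 0.392 and 0.426 after ID8. The 5 challenged libraries other than WT ID8 3 lay within 0.362 to 0.426, below all naive libraries. WT ID8 3 had a ratio within the naive range. As mean ± SD over 3 libraries, the ratio in WT went from 1.35 ± 0.437 (naive) to 0.943 ± 0.997 (ID8), and in Tim4KO from 1.68 ± 0.676 to 0.413 ± 0.0177.

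**Figure D2:**
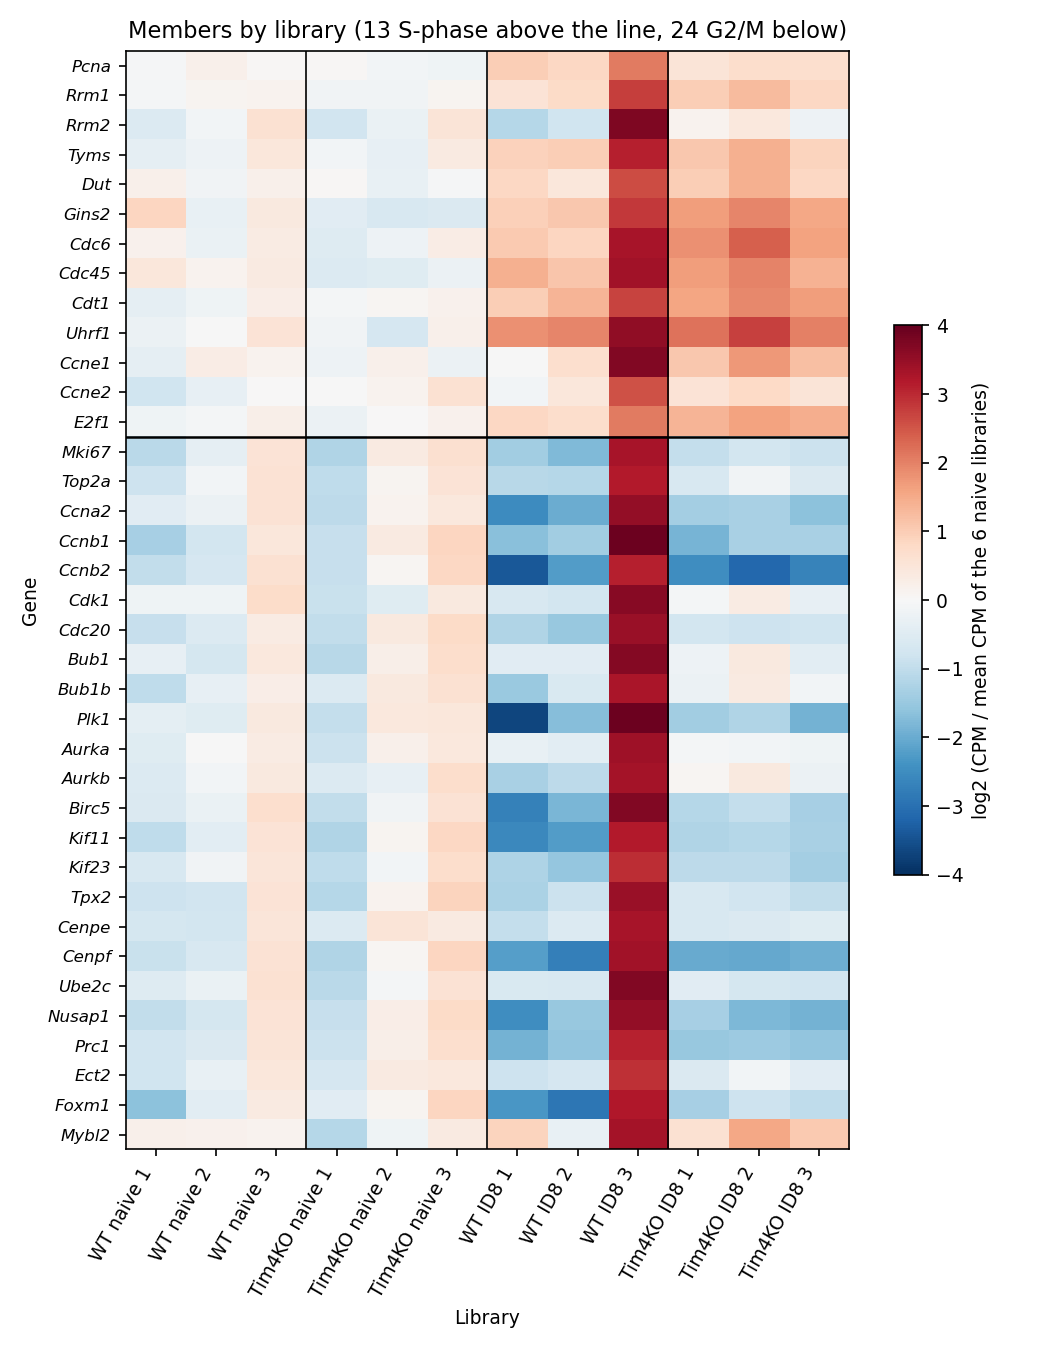
Level of each of the 37 genes in each library, as log2 of its CPM over its mean in the 6 naive libraries (colour scale, red higher and blue lower), with S-phase genes above the horizontal line and G2/M genes below it, and vertical lines between the groups. Outside WT ID8 3, challenged libraries are red for most S-phase genes and blue for most G2/M genes, while the WT ID8 3 column is red in all rows.

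Promoters of both classes are shown because most members of a class, though not all, had the same direction between naive libraries and the challenged ones other than WT ID8 3. The sequences were taken from RefSeq on build GRCm38.p6, as windows from 250 bases before to 50 bases after each start site. A window was found for 31 of the 37 genes, 11 S-phase and 20 G2/M. The 3 motifs searched, on both strands, were E2F-type sites (TTTCCCGC, TTTGGCGC, TTTCGCGC or TTTGCCGC), the cell cycle genes homology region or CHR (TTTGAA), and the CCAAT box (CCAAT). A match describes letters, not binding. E2F-type letters were in 3 of 11 S-phase promoters (27.3%), 1 of 20 G2/M promoters and 2.6% of the promoters of all 27025 genes in the table. CHR letters were in 14 of 20 G2/M promoters (70.0%), 1 of 11 S-phase promoters and 20.2% of all genes. Within the 250 bases before the start they were in 9 of the 20 (45.0%) and in 18.3% of all genes. CCAAT letters were in 17 of 20 G2/M promoters (85.0%), 5 of 11 S-phase promoters (45.5%) and 41.1% of all genes.

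The 250 bases before the start are printed for the best-expressed genes of each class whose window there holds the motif of that class, 5′ to 3′ on the gene's strand, with matches to any of the 3 motifs in capitals. Of the S-phase genes, these are Uhrf1 (chr17:56304063-56304312, plus strand), with TTTCGCGC, and Cdc6 (chr11:98907901-98908150, plus strand), with GCGGGAAA, which reads TTTCCCGC on the other strand:
Uhrf1: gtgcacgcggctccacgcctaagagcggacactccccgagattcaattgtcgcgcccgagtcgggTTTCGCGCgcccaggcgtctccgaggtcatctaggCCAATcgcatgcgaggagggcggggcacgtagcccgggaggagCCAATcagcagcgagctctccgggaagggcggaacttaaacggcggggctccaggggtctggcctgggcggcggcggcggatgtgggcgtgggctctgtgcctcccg
Cdc6: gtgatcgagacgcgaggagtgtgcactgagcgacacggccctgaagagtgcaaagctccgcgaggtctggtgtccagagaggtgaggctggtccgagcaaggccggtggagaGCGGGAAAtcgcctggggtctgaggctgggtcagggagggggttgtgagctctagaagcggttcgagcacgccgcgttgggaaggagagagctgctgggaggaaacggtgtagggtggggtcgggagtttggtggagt
Of the G2/M genes, these are Top2a (chr11:99024190-99024439, minus strand), Mki67 (chr7:135716380-135716629, minus strand) and Ube2c (chr2:164769679-164769928, plus strand). Each holds TTTGAA or its reverse complement TTCAAA together with several CCAAT boxes, written ATTGG on the other strand, and the capital run CCAATTGG of Ube2c is an overlapping pair of matches:
Top2a: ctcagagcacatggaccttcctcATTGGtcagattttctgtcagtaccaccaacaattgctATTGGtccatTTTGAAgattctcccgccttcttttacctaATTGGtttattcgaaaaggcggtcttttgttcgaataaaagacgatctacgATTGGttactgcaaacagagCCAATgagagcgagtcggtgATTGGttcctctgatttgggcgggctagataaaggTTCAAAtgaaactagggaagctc
Mki67: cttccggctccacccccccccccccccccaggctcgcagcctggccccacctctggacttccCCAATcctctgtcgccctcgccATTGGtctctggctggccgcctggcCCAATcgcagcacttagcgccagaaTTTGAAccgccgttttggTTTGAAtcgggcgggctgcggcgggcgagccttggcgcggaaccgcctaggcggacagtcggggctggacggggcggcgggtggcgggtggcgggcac
Ube2c: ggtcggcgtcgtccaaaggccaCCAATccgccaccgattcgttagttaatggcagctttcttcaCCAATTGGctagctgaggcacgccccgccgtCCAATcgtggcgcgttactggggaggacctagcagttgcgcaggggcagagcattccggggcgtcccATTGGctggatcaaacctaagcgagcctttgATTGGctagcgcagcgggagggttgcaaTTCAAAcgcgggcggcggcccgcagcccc

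Among the S-phase genes, those of nucleotide supply differed from each other. Rrm1, the large subunit of ribonucleotide reductase, had 43.3, 49.5 and 50.4 CPM in naive WT libraries 1 to 3 and 67.3, 77.2 and 309.9 CPM after ID8, while Tim4KO libraries had 41.5, 41.1 and 49.1 CPM when naive and 89.8, 109 and 80.6 CPM after ID8. All 6 challenged libraries were above all 6 naive ones. Rrm2, the small and cell cycle-controlled subunit of the same enzyme, had 17.8, 24.0 and 39.6 CPM in naive WT libraries 1 to 3 and 11.7, 14.8 and 344 CPM after ID8, while Tim4KO libraries had 15.3, 21.4 and 36.8 CPM when naive and 28.4, 34.8 and 22.4 CPM after ID8. WT ID8 1 and 2 were the lowest of the 12 libraries for Rrm2, Tim4KO ID8 overlapped with naive cells, and WT ID8 3 was 25.9 times the mean of WT ID8 1 and 2, the largest such ratio of the S-phase class. Tyms, thymidylate synthase, and Dut, which removes dUTP, resembled Rrm1 rather than Rrm2, with all challenged libraries above all naive ones.

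Genes that license and fire replication origins were higher with challenge in both genotypes. Cdt1, which loads the replicative helicase, had 8.34, 9.42 and 12.6 CPM in naive WT libraries 1 to 3 and 21.2, 27.4 and 68.6 CPM after ID8, while Tim4KO libraries had 10.1, 11.2 and 12 CPM when naive and 31.4, 39.8 and 34.1 CPM after ID8. The lowest challenged library was above the highest naive one. Gins2, a subunit of the GINS complex of the active helicase, had 9.53, 4.27 and 6.85 CPM in naive WT libraries 1 to 3 and 10.1, 11 and 37.2 CPM after ID8, while Tim4KO libraries had 3.77, 3.33 and 3.49 CPM when naive and 16.5, 20.2 and 15.3 CPM after ID8. Its conditions did not overlap either, although the highest naive library, WT naive 1, came close to WT ID8 1. Cdc6, the partner of Cdt1 in licensing, and Cdc45, the partner of GINS in the active helicase, likewise did not overlap between conditions. Exons of Gins2 and Cdc45 overlap those of Gse1 and Ufd1 on the opposite strand, and the handling of strand in the counting is not given in the sources used here.

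At the fork, Pcna, the sliding clamp of the DNA polymerases, had 28.9, 34.8 and 31.5 CPM in naive WT libraries 1 to 3 and 59.6, 53.1 and 127 CPM after ID8, while Tim4KO libraries had 31.2, 27.7 and 26.9 CPM when naive and 42.8, 49.4 and 48.0 CPM after ID8. Its ratio of WT ID8 3 to the mean of WT ID8 1 and 2 was 2.26, the smallest of all 37 genes. Each Tim4KO ID8 library was above every naive library and below every WT ID8 library. Uhrf1, which recruits maintenance DNA methylation to replicated DNA, had 9.42, 11 and 16.1 CPM in naive WT libraries 1 to 3 and 39.4, 43.0 and 129 CPM after ID8, while Tim4KO libraries had 10.1, 6.92 and 12.7 CPM when naive and 49.2, 73.7 and 44.2 CPM after ID8. It showed the largest challenge ratio of all members, at 4.52 for the mean of the 5 challenged libraries without WT ID8 3 over the mean of the 6 naive ones. That ratio had a median of 2.11 over the 13 S-phase genes and was lowest for Rrm2, at 0.868.

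Of the regulators of S-phase entry, E2f1, a transcription factor that activates this class, had 14.3, 15.4 and 19.1 CPM in naive WT libraries 1 to 3 and 28.7, 26.3 and 68.3 CPM after ID8, while Tim4KO libraries had 13.8, 16.2 and 18.2 CPM when naive and 41.7, 48.8 and 44.6 CPM after ID8. The 2 conditions did not overlap, and Tim4KO ID8 was above WT ID8 1 and 2 but below WT ID8 3. The E-type cyclins Ccne1 and Ccne2, which activate CDK2 at S-phase entry, overlapped between WT naive and WT ID8. Ccne1 had 1.19, 1.87 and 1.68 CPM in WT naive against 1.5, 2.41 and 19.6 CPM in WT ID8. In Tim4KO, Ccne1 did not overlap, at 1.31, 1.73 and 1.30 CPM when naive and 3.23, 4.98 and 3.46 CPM after ID8. Ccne2 overlapped in Tim4KO too. Exons of Ccne2 overlap those of Ints8 on the opposite strand.

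**Figure D3:**
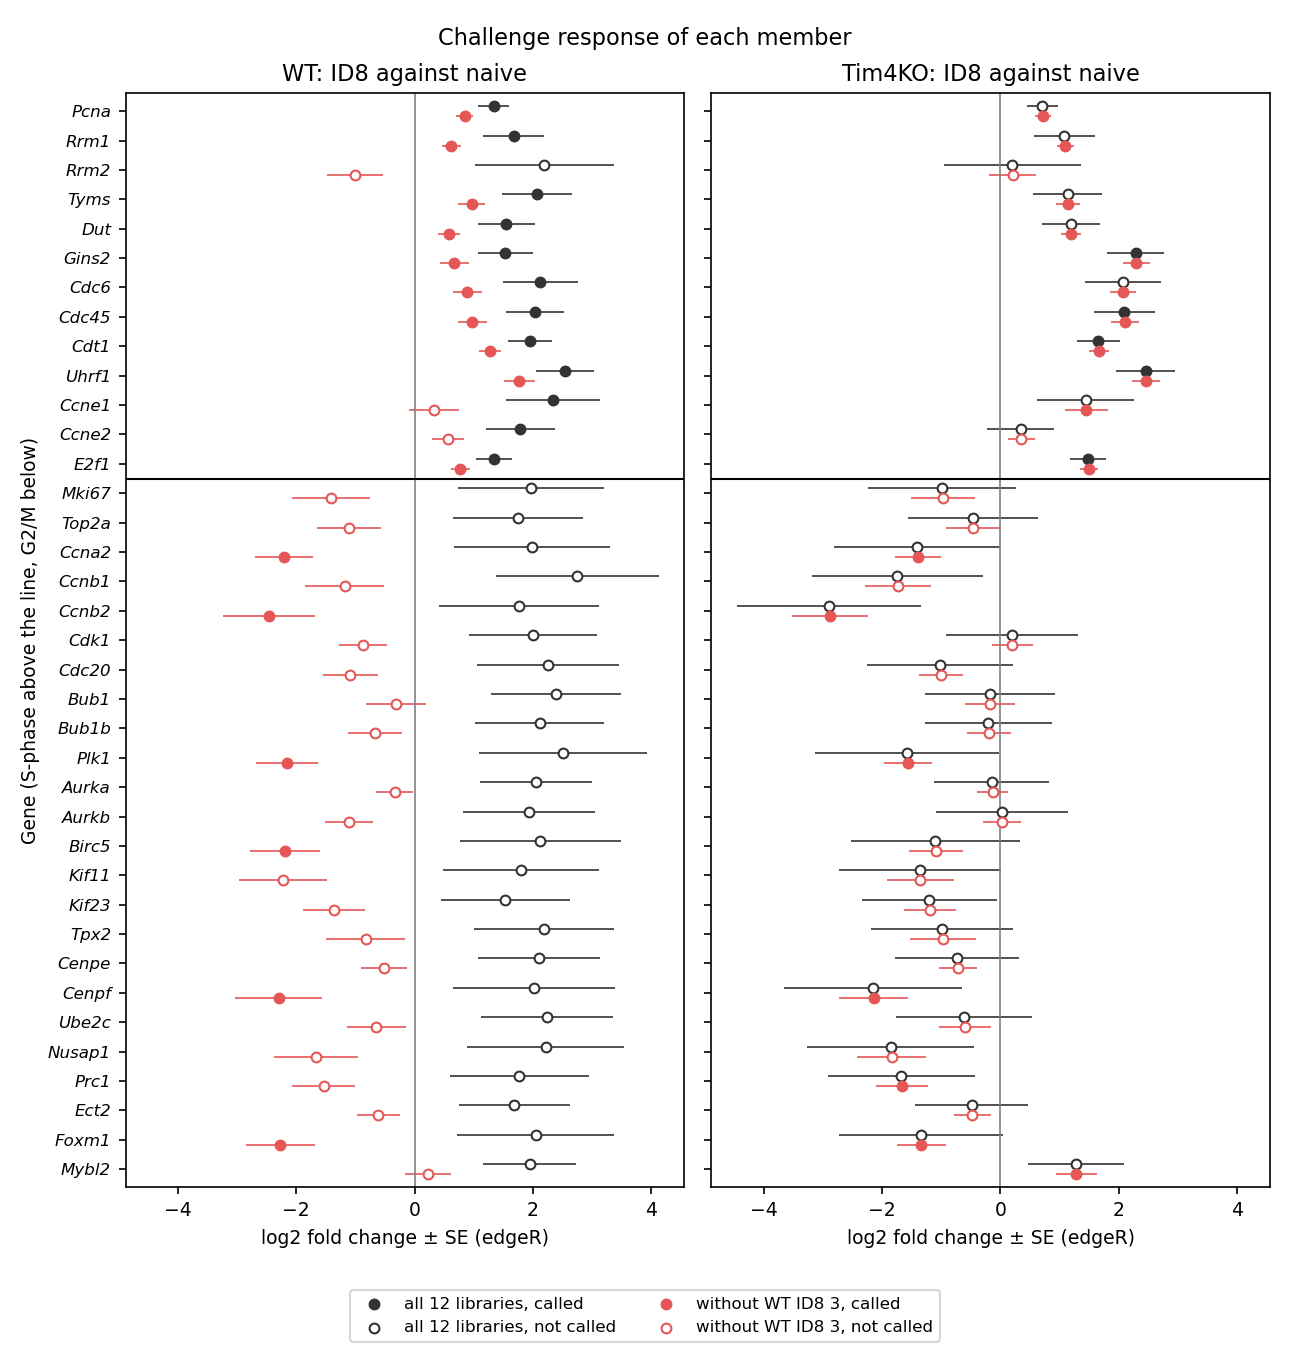
Challenge response (log2 fold change of ID8 against naive ± SE, edgeR) of each gene in WT (left) and Tim4KO (right), with all 12 libraries in black and without WT ID8 3 in red, filled where the adjusted p was under 0.05 and open where it was not. S-phase genes lie above the line and stay right of 0 in both fits except Rrm2 in WT, whereas the G2/M genes of WT lie right of 0 in black and, Mybl2 aside, left of 0 in red.

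The WT challenge comparison set cells with tumour material against naive cells where Tim4 was present. With all libraries edgeR called 12 of 13 S-phase genes as higher and 0 as lower at an adjusted p under 0.05, where 19.5% of all genes were called higher and 12.3% lower. Their median log2 fold change was 1.95, against -0.04 over all genes. Uhrf1 rose by 2.54 (SE 0.49, edgeR adjusted p = 0.00435) on the log2 scale, Cdt1 by 1.95 (SE 0.37, edgeR adjusted p = 0.00247) and Pcna by 1.34 (SE 0.26, edgeR adjusted p = 0.00216). Rrm2 was not called, at 2.19 (SE 1.17, edgeR adjusted p = 0.177).

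The median fold change was smaller without WT ID8 3. The fit without it left out a library singled out for its level in these same genes, so its calls are descriptive. In that fit, edgeR called 10 S-phase genes as higher, all of them among the 12, with a median log2 fold change of 0.77 and with 19.2% of all genes called higher. Uhrf1 then stood at 1.77 (SE 0.26, edgeR adjusted p = 0.000105), Cdt1 at 1.28 (SE 0.19, edgeR adjusted p = 6.09e-06) and Pcna at 0.85 (SE 0.15, edgeR adjusted p = 5.81e-05). Ccne1, Ccne2 and Rrm2 were not called, and Rrm2 stood at -1.01 (SE 0.48, edgeR adjusted p = 0.154). The count of 12 became 6, 5 and 5 without WT naive 1, 2 and 3, 7 without Tim4KO naive 2, 7 with upper-quartile scaling and 3 with only the 2 WT groups in the fit (21.8% of all genes called), all of them higher. Over all genes the count was 5067 with all libraries. It ran from 3362 to 7230 as each library was left out and was 5307 with upper-quartile scaling. Upper-quartile scaling took the share of higher genes among all calls from 61.3% to 33.9% and the median of all genes to -0.28.

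G2/M genes gave no call in WT cells with all libraries, where 31.8% of all genes were called in either direction. All 24 had a positive log2 fold change, with a median of 2.03 and a median SE of 1.18, and 1 had an unadjusted p under 0.05. DESeq2 called 1 of them as higher and limma voom 0, and edgeR called 1 as higher without WT ID8 2. The shares of all genes called in those fits are not given here, so nothing is read from these counts. Without WT ID8 3 the direction was the opposite for 23 of the 24 genes, with a median of -1.15. In that fit edgeR called 6 as lower and 0 as higher (10.2% of all genes were called lower). These were Foxm1, a transcription factor that activates the class, at -2.27 (SE 0.59, edgeR adjusted p = 0.00925), Ccna2, the cyclin of S and G2 phases, at -2.21 (SE 0.49, edgeR adjusted p = 0.00546), and Ccnb2, a mitotic cyclin, at -2.46 (SE 0.78, edgeR adjusted p = 0.0489). The others were Plk1, a kinase of mitotic entry and spindle assembly, at -2.15 (SE 0.53, edgeR adjusted p = 0.00318), Birc5, a subunit of the chromosomal passenger complex, at -2.20 (SE 0.59, edgeR adjusted p = 0.0216), and Cenpf, a kinetochore protein, at -2.30 (SE 0.74, edgeR adjusted p = 0.0456).

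In Tim4KO cells the same comparison gave the response without Tim4. With all libraries edgeR called 5 of 13 S-phase genes as higher, where 11.5% of all genes were called higher, and all 13 had a positive log2 fold change (median 1.44, against -0.05 over all genes). Gins2 rose by 2.29 (SE 0.48, edgeR adjusted p = 0.00871) on the log2 scale, Uhrf1 by 2.46 (SE 0.50, edgeR adjusted p = 0.00957) and E2f1 by 1.48 (SE 0.31, edgeR adjusted p = 0.00661), and Cdt1 and Cdc45 were the others. WT ID8 3 enters this comparison through the shared estimate of the spread. Without it the same 5 genes and a further 6 were called, 11 in all, with 14.0% of all genes called higher and a median log2 fold change of 1.45. Rrm2 and Ccne2 were not called in either fit. The count of 5 became 1 and 2 without Tim4KO naive 2 and 3, and 3 without Tim4KO ID8 2. The count over all genes moved too, being 2642 with all libraries and 1222 to 3595 as each library was left out. Of all calls 69.5% were higher, and 48.7% with upper-quartile scaling.

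For G2/M genes in Tim4KO cells, edgeR called 0 of 24 with all libraries, none had an unadjusted p under 0.05, and DESeq2 and limma voom called 0 too (16.6% of all genes were called by edgeR). The median log2 fold change was -1.0, and 21 of 24 were negative. Without WT ID8 3 the median was -0.99 and the median SE went from 1.22 to 0.43. In that fit 6 genes were called lower, where 6.72% of all genes were: Foxm1, Cenpf, Ccna2, Plk1, Ccnb2 and Prc1, a bundler of the central spindle. All but Prc1 were also called lower in WT cells in that fit. Ccnb2 had the lowest value, at -2.88 (SE 0.65, edgeR adjusted p = 0.0168). With only the 2 Tim4KO groups in the fit, and so no WT library, 12 G2/M genes were called, 11 of them lower. That fit called 27.1% of all genes in either direction, and 1559 of 14124 genes as lower.

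Mybl2 was the only G2/M gene called higher in either genotype without WT ID8 3. It encodes a transcription factor that acts from late G1 onwards and is itself an E2F target, and it had 2.92, 2.87 and 2.79 CPM in naive WT libraries 1 to 3 and 4.72, 2.06 and 25.5 CPM after ID8, while Tim4KO libraries had 1.15, 2.26 and 3.27 CPM when naive and 3.84, 7.48 and 5.30 CPM after ID8. Tim4KO ID8 was above Tim4KO naive in every library. WT ID8 1 and 2 lay on either side of WT naive. Without WT ID8 3, edgeR called it higher in Tim4KO cells at 1.28 (SE 0.34, edgeR adjusted p = 0.00802), and in WT cells it stood at 0.23 (SE 0.39, edgeR adjusted p = 0.677). Its ratio of WT ID8 3 to the mean of WT ID8 1 and 2 was 7.52, the smallest of the G2/M class.

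The best-expressed G2/M genes show the pattern by library. Top2a, topoisomerase II, which untangles chromosomes, had 25.6, 41.4 and 67.0 CPM in naive WT libraries 1 to 3 and 20.7, 20.4 and 405 CPM after ID8, while Tim4KO libraries had 22.3, 48.7 and 65.3 CPM when naive and 28.9, 40.4 and 29.9 CPM after ID8. Mki67, the coat of mitotic chromosomes and a standard proliferation marker, had 18.1, 29.9 and 56.7 CPM in naive WT libraries 1 to 3 and 14.9, 11.3 and 380.2 CPM after ID8, while Tim4KO libraries had 16.9, 49.3 and 60.4 CPM when naive and 19.8, 23.1 and 21.1 CPM after ID8. For both, WT ID8 1 and 2 were below all naive libraries, and the naive libraries of 1 genotype differed more than 2-fold among themselves. Each Tim4KO ID8 library was above WT ID8 1 and 2 for both genes.

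Cdk1, the kinase that drives entry into mitosis, had 9.75, 9.88 and 18.6 CPM in naive WT libraries 1 to 3 and 7.14, 6.70 and 138 CPM after ID8, while Tim4KO libraries had 5.99, 7.86 and 14.5 CPM when naive and 10.5, 13.8 and 8.82 CPM after ID8. Tim4KO ID8 overlapped with both naive groups, while WT ID8 1 and 2 were below all WT naive libraries. Ube2c, the ubiquitin-conjugating enzyme of the anaphase-promoting complex, had 9.64, 11.4 and 21.1 CPM in naive WT libraries 1 to 3 and 9.09, 8.77 and 179 CPM after ID8, while Tim4KO libraries had 6.48, 13.1 and 20.7 CPM when naive and 10.1, 8.40 and 8.07 CPM after ID8. The 5 challenged libraries other than WT ID8 3 lay within 8.07 to 10.1 CPM, inside the naive range. Exons of Ube2c overlap those of Tnnc2 on the opposite strand.

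Of the spindle genes, Kif11, the motor that separates spindle poles, had 7.15, 10.8 and 21.2 CPM in naive WT libraries 1 to 3 and 2.42, 3.09 and 129 CPM after ID8, while Tim4KO libraries had 6.32, 15.5 and 25.7 CPM when naive and 6.23, 6.55 and 5.88 CPM after ID8. Nusap1, a microtubule-bundling protein of the spindle, had 6.93, 8.35 and 19.8 CPM in naive WT libraries 1 to 3 and 2.42, 4.73 and 155 CPM after ID8, while Tim4KO libraries had 7.14, 16.4 and 23.0 CPM when naive and 5.38, 3.88 and 3.69 CPM after ID8. For Nusap1, whose exons overlap those of Oip5 on the opposite strand, the 5 challenged libraries other than WT ID8 3 were below all naive ones. For Kif11 the highest of those 5 was above the lowest Tim4KO naive library, and neither gene was called with all libraries or without WT ID8 3.

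Plk1 had 3.36, 3.21 and 5.80 CPM in naive WT libraries 1 to 3 and 0.345, 1.38 and 67.5 CPM after ID8, while Tim4KO libraries had 2.30, 5.99 and 6.03 CPM when naive and 1.69, 1.94 and 1.21 CPM after ID8. WT ID8 1 rested on 3 reads for this gene, the smallest count of any member in any library, so its ratio of WT ID8 3 to the mean of WT ID8 1 and 2 (78.5, the largest of all 37 genes) is imprecise. Against the highest of the other 11 libraries, Plk1 in WT ID8 3 was 11.2 times as high.

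The remaining G2/M genes fell into those whose 5 challenged libraries other than WT ID8 3 lay below the naive ones and those that overlapped. Ccnb2 had 1.15 to 2.58 CPM in those 5 against 6.17 to 21.5 CPM in naive libraries, Ccna2 had 2.07 to 4.80 against 5.74 to 17.7 CPM, and Cenpf had 1.2 to 2.08 against 3.44 to 14.6 CPM. Kif23, a motor of cytokinesis, and Prc1 were also separated, at 4.55 to 6.38 against 6.56 to 21.6 CPM and at 2.88 to 3.88 against 5.90 to 17.1 CPM. These genes thus had their whole challenged range, WT ID8 3 aside, under the lowest naive library. Exons of Ccna2 and Prc1 overlap those of Exosc9 and Rccd1 on the opposite strand.

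Overlap was found for the other members. Ccnb1, a mitotic cyclin that activates CDK1, Birc5 and Foxm1 each had at least 1 of those 5 libraries above the lowest naive one. The checkpoint kinases Bub1 and Bub1b, the mitotic kinases Aurka and Aurkb, the spindle factor Tpx2, the kinetochore motor Cenpe, the cytokinesis factor Ect2 and Cdc20, an activator of the anaphase-promoting complex, lay within or across the naive range. Exons of Cdc20 overlap those of Elovl1, a gene with more counts, on the opposite strand. Aurkb had 4.14 and 4.98 CPM in WT ID8 1 and 2 against 8.70 to 13.5 CPM in Tim4KO ID8, so that the genotypes were separated there apart from WT ID8 3.

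The ratios of WT ID8 3 to other libraries were unequal between the classes. Over the mean of WT ID8 1 and 2, the S-phase genes were 2.26 to 25.9 times as high there (median 4.23), and the G2/M genes 7.52 to 78.5 times (median 25.3). All 37 genes were at least 2 times as high, which 6.4% of all genes were. A ratio of at least 10 was reached by 23 of 24 G2/M genes and 2 of 13 S-phase genes, Rrm2 and Ccne1, against 0.909% of all genes. Over the mean of the 6 naive libraries the classes were nearer to each other, at 4.21 to 13.3 times (median 7.15) for S-phase and 7.55 to 15.3 times (median 10.2) for G2/M. Levels at least 4 times the highest of the other 11 libraries were found for 23 G2/M genes and 1 S-phase gene, against 0.759% of all genes.

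WT ID8 3 differed from the other libraries in further features, and their part in the result was not tested. It was the deepest library (23170244 counts) with the fewest genes detected (21235). Reads in 1713 olfactory and vomeronasal receptor genes, a family named for the sensory epithelia of the nose, summed to 5.89 CPM there. The other challenged libraries had 41.0 to 347 CPM of them, and naive ones 259 to 813.5 CPM. Tim4KO ID8 1 was next lowest at 41.0 CPM, and its G2/M sum was 169 CPM. The 15 epithelial or ID8 tumour markers summed to 1.64 CPM in WT ID8 3, the lowest of the 12 libraries. Of the 15, 10 were at 0 counts there, Krt8, Krt19 and Epcam among them, and the others had counts. The sum was 2.08 to 7.75 CPM for the other 5 challenged libraries and 6.95 to 29.7 CPM for naive ones. The 10 mesothelial or fibroblast markers summed to 0.274 CPM, likewise the lowest of the 12 libraries.

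The labelled cell type was checked in the same way. The 15 large peritoneal macrophage markers summed to 17770 CPM in WT ID8 3, within the 13440 to 26490 CPM of the other libraries. The 11 small macrophage, monocyte or dendritic markers summed to 407 CPM, against 111 and 136.5 CPM in WT ID8 1 and 2, 290.1 to 372 CPM in Tim4KO ID8 and 275.5 to 545 CPM in naive libraries. B cell markers summed to 4.47 CPM and T or NK cell markers to 4.88 CPM in WT ID8 3, where the other 5 challenged libraries had 4.47 to 11.5 CPM and 4.90 to 9.30 CPM. The 11 neutrophil markers summed to 12.4 CPM, below the 23.23 to 34.7 CPM of the other 5 challenged libraries. The 8 erythroid or progenitor markers summed to 3.24 CPM in WT ID8 3, to 1.31 to 2.88 CPM in those 5 and to 2.59 to 142 CPM in naive libraries. Timd4 itself was at 1178, 1279 and 1489 CPM in WT naive and 1115, 1452 and 882.5 CPM in WT ID8, against 7.21 to 7.71 CPM in Tim4KO naive and 1.38 to 1.92 CPM in Tim4KO ID8, so that every library matched its genotype label.

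**Figure D4:**
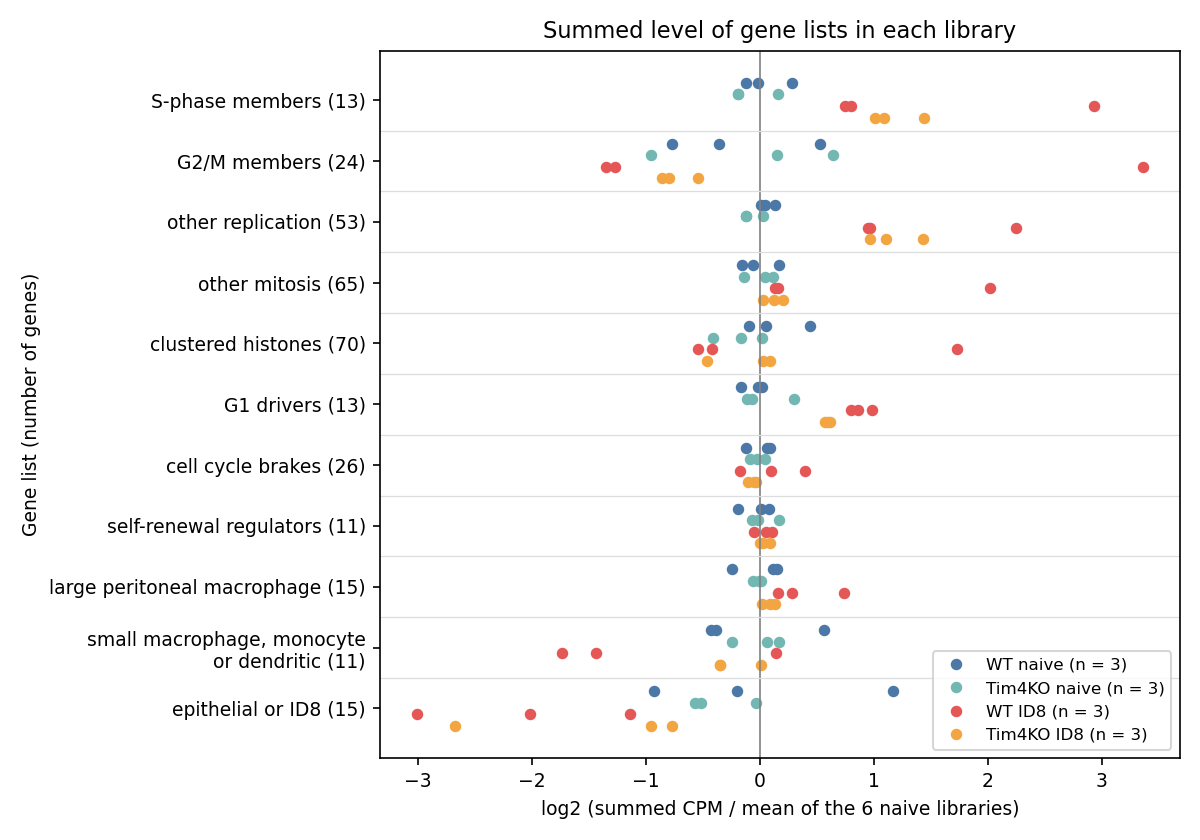
Summed CPM of each gene list in each library, as log2 over the mean of the 6 naive libraries (x axis), with 1 row per list, the number of genes in brackets, 1 point per library and the colour for the group. WT ID8 3 is the far-right point for the S-phase, G2/M, replication, mitosis and histone lists, and the far-left point for the epithelial or ID8 list. It is also the far-right point for the G1 driver and cell cycle brake lists, by a smaller margin.

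Naive libraries spanned 151 to 458 CPM in the G2/M sum and 166 to 231 CPM in the S-phase sum. WT naive 3 and Tim4KO naive 3 were the 2 highest of the 6 naive libraries for 19 of 24 G2/M genes, and for 6 of 13 S-phase genes, against 5.14% of all genes. Tim4KO naive 1 was the lowest for 17 of the 24 G2/M genes, and Tim4KO naive 3 the highest for 17. For genotype in naive cells, edgeR called 0 of the 37 genes, and none had an unadjusted p under 0.05 (0.0439% of all genes were called). DESeq2 and limma voom called 0 of them as well. Log2 fold changes ran from -0.94 to 0.59 for S-phase genes (median -0.15) and from -0.41 to 0.62 for G2/M genes (median 0.26), with median SEs of 0.51 and 1.18. WT ID8 3 enters these SEs through the shared estimate of the spread. Without it the median SEs were 0.23 and 0.41, and edgeR still called 0 of the 37 genes. In that fit 3 S-phase and 0 G2/M genes had an unadjusted p under 0.05, as did 1497 of all 17374 genes. Gins2 had the smallest, at -0.92 (SE 0.24, edgeR adjusted p = 0.137). It had 3.33 to 3.77 CPM in Tim4KO naive against 4.27 to 9.53 CPM in WT naive. Cdc45 was also lower there, without overlap.

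The genotype comparison in challenged cells depended on WT ID8 3. With all libraries edgeR called 0 of the 37 genes, where it called 0.0565% of all genes, and 1 S-phase and 10 G2/M genes had an unadjusted p under 0.05. DESeq2 called 1 G2/M gene as lower, and limma voom called 0. No share of all genes stands beside those counts here, so nothing is read from them. The median log2 fold change of Tim4KO against WT was -0.65 for S-phase and -2.77 for G2/M genes. Without WT ID8 3 these medians were 0.45 and 0.53. That fit rests on WT ID8 1 and 2 and leaves out a library singled out for its level in these genes. Its calls are therefore descriptive. In that fit Cdc6 and E2f1 were called higher in Tim4KO, at 1.03 (SE 0.24, edgeR adjusted p = 0.0133) and 0.71 (SE 0.16, edgeR adjusted p = 0.00948), where 2.24% of all genes were called higher, and 0 G2/M genes were called, with 2 at an unadjusted p under 0.05 (5.74% of all genes were called in either direction). By library, Tim4KO ID8 was above WT ID8 1 and 2 without overlap for 9 of 13 S-phase genes and 14 of 24 G2/M genes, a pattern found in 18.4% of all genes. The opposite order was found for Pcna alone of the 37, against 21.8% of all genes.

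The interaction, the Tim4KO response minus the WT response, tested whether the challenge responses differed by genotype. With all libraries edgeR called 0 of the 37 genes and 0.0% of all genes, and 0 of the 37 had an unadjusted p under 0.05. DESeq2 and limma voom also called 0 of the 37. The median difference was -0.36 for S-phase and -3.05 for G2/M genes on the log2 scale. Without WT ID8 3 the medians were 0.69 and 0.18, and Gins2 was called, at 1.63 (SE 0.33, edgeR adjusted p = 0.00885), where 0.794% of all genes were called higher. Gins2 then had the larger response in Tim4KO cells, and its lower Tim4KO naive level is part of that difference. For Tim4KO against WT, that fit put Gins2 at -0.92 in naive cells (edgeR adjusted p = 0.137). In ID8 cells it was at 0.71 (edgeR adjusted p = 0.0769). The interaction call for Gins2 too is descriptive, since WT ID8 3 was singled out for its level in these genes.

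Other genes of the cell cycle were counted from lists that exclude the 37. Over all tested genes 19.5% were called higher and 12.3% lower in the WT challenge comparison, and 11.5% higher and 5.06% lower in Tim4KO. Of 53 other replication genes, edgeR called 39 higher and 0 lower in WT, and 28 higher and 0 lower in Tim4KO, larger shares of higher calls than over all genes. Hells, a chromatin remodeller, changed by 2.46 in WT and 2.34 in Tim4KO on the log2 scale, and Mcm3, a subunit of the replicative helicase, by 1.95 and 1.86 (edgeR adjusted p from 1.59e-05 to 8.56e-05). Of 65 other mitosis genes, 4 were called higher in WT and 2 in Tim4KO, and 0 lower, smaller shares than over all genes. Among them Tuba1c, an alpha-tubulin, rose by 1.95 in WT (edgeR adjusted p = 2.73e-06) and 0.97 in Tim4KO (edgeR adjusted p = 0.00113). In WT all 65 had a positive log2 fold change (median 1.68), with a median SE of 0.95 against 0.23 over all genes. In Tim4KO the median was -0.25, with a median SE of 0.99 against 0.23 over all genes. At that spread the low share of calls does not show a smaller change than in other genes. Without WT ID8 3, the mitosis list had 3 genes called higher and 21 lower in WT, and 8 higher and 6 lower in Tim4KO. All genes of that fit had 19.2% higher and 10.2% lower in WT, and 14.0% higher and 6.72% lower in Tim4KO, so that the Tim4KO counts were near the background.

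Regulators of entry into the cycle were counted in the same way. Of 13 genes that drive G1 progression, 10 were called higher in WT and 5 in Tim4KO, and 0 lower, against 19.5% and 11.5% of all genes called higher. They included Cdk6 (1.46 in WT and 1.0 in Tim4KO) and Cdk4 (1.01 and 0.90), the kinases that pair with D-type cyclins, with edgeR adjusted p from 2.92e-06 to 0.000133. Of 26 cell cycle brakes, 6 were called higher and 5 lower in WT, and 4 higher and 3 lower in Tim4KO, where all genes had 19.5% higher and 12.3% lower in WT and 11.5% higher and 5.06% lower in Tim4KO. The shares of brakes called higher were near that background. In the fit without WT ID8 3, 11 brakes were called lower in WT (10.2% of all genes were) and 7 in Tim4KO (6.72%). Cdkn1c, a CDK inhibitor, fell by 2.93 in WT (edgeR adjusted p = 5.45e-06) and fell by 1.86 in Tim4KO (edgeR adjusted p = 0.00032). Cdkn1a, a CDK inhibitor of the p53 pathway, rose by 1.21 in WT and 0.71 in Tim4KO (edgeR adjusted p of 0.000235 and 0.014). Of 11 regulators of macrophage self-renewal, 1 was called higher in WT, and 1 higher and 1 lower in Tim4KO, which is no more higher calls than the 19.5% and 11.5% of all genes. Without WT ID8 3, 3 of the 11 regulators were called higher and 0 lower in WT, where 19.2% of all genes were called higher. In Tim4KO that fit called 1 higher and 2 lower, where 14.0% of all genes were higher and 6.72% lower. Csf2ra, a receptor chain for GM-CSF, was higher in both (0.64 and 0.77, edgeR adjusted p of 0.00128 and 0.000759). Maf, a factor that restrains macrophage self-renewal, fell by 1.02 in Tim4KO (edgeR adjusted p = 0.00417).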

How the data were processed

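The authors deposited 1 table of raw read counts per gene for 12 libraries. Per the labels' protocols, RNA came from a RNeasy micro kit, and SMART-Seq mRNA LP was the library kit. The submitters' processing notes name FastQC, STAR 2.5 and the builds mm10 and GRCm39, with no role or order. The counting program and its handling of strand are not given in the sources used here. Gene names came from GENCODE vM21, which named 52029 of 57010 gene IDs.

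Library totals ran from 7358559 to 23170244 counts. Genes with low counts were removed with filterByExpr, leaving 15943. edgeR 4.0.16 (R 4.3.3) fitted 1 mean per group with TMM scaling and robust quasi-likelihood, with 8 residual degrees of freedom, and 5 contrasts were tested with Benjamini-Hochberg adjustment over all tested genes at 0.05. SE is the size of the log2 fold change over the root of the F statistic. CPM were scaled by the sum of kept counts times the TMM factor. The script was tested on simulated data. DESeq2 1.42.0, limma voom 3.58.1, other scalings, no filter, a replicate block, fits of 2 groups and leaving out each library were the alternatives.

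The members, lists and tests were chosen with earlier results of these data known. Values in every library are given for the 4 S-phase and 6 G2/M genes with the highest mean CPM, for up to 3 called genes per class and comparison with the smallest p, and for the largest and smallest ratio of WT ID8 3 to the mean of WT ID8 1 and 2 in each class (mean count of at least 50). Genes from other lists were named by smallest p among called genes. RefSeq promoter windows on GRCm38.p6 were matched by symbol.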

Additional observations from a re-analysis of the deposited data

How the results depend on the processing

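Most counts depended on which libraries were in the fit, and the cause was not tested. Leaving out each library in turn, edgeR called 5 to 12 S-phase genes in the WT challenge comparison, 1 to 11 in the Tim4KO challenge comparison, 0 to 2 for genotype in challenged cells and 0 to 1 for the interaction. For G2/M genes the ranges were 0 to 6 in WT and 0 to 7 in Tim4KO. Over all genes they were 1 to 29 for genotype in naive cells, 1 to 997 for genotype in challenged cells, 3362 to 7230 for the WT challenge, 1222 to 3595 for the Tim4KO challenge and 0 to 368 for the interaction. The highest counts for genotype in challenged cells and the interaction, and both G2/M maxima, were those without WT ID8 3.

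Without a filter on low counts, edgeR called 59 genes for genotype in naive cells, 264 for genotype in challenged cells and 73 for the interaction, with 1 S-phase gene lower for genotype in challenged cells and 6 S-phase genes higher in the WT challenge. DESeq2 called 52, 265 and 11 genes for those 3 comparisons, 1 G2/M gene lower for genotype in challenged cells and 1 higher in the WT challenge. With only the 2 groups compared, 2 genes were called for genotype in naive cells and 3102 in the WT challenge, with 3 S-phase genes in WT, 11 in Tim4KO, and 12 G2/M genes in Tim4KO. Upper-quartile scaling gave 7 S-phase genes in the WT challenge, and limma voom gave 4 genes for genotype in naive cells. Where no count over all genes stands beside a count of members, nothing is read from the latter. CHR letters fell from 70.0% to 45.0% of G2/M promoters in the shorter window.

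With a replicate block, the counts over all genes became 3 for genotype in naive cells and 14 for genotype in challenged cells, and 9 and 6 S-phase genes were called in the WT and Tim4KO challenge. The counts over all genes for those challenge comparisons are not given here, so nothing is read from the 9 and 6. Correlations of same-numbered libraries ran from -0.498 to 0.423, and 2 of 12 libraries correlated best with their own number. With so few libraries per group these values cannot show whether same-numbered samples were handled together, and nothing is concluded from them.

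Log2 fold changes of single genes changed sign when 1 library was left out. That library was WT ID8 3 in the WT challenge and, E2f1 aside, for genotype in challenged cells. For E2f1 and in the Tim4KO challenge the sign changed without other libraries. For genotype in challenged cells the ranges were -1.12 to 0.36 for Rrm1, -2.73 to 1.09 for Rrm2, -0.70 to 0.43 for Uhrf1, -0.52 to 0.52 for Cdt1, -0.14 to 0.71 for E2f1, -0.55 to 0.71 for Gins2 and -1.5 to 0.73 for Mybl2. They were -2.76 to 0.68 for Top2a, -3.27 to 0.71 for Mki67, -4.28 to 0.23 for Nusap1, -2.79 to 0.67 for Cdk1, -3.49 to 1.15 for Kif11 and -4.51 to 0.79 for Plk1. In the WT challenge they were -1.01 to 2.81 for Rrm2, -1.11 to 2.34 for Top2a, -1.42 to 2.57 for Mki67, -0.65 to 2.82 for Ube2c, -1.66 to 2.86 for Nusap1, -0.87 to 2.59 for Cdk1, -2.22 to 2.42 for Kif11 and -2.15 to 3.15 for Plk1. In the Tim4KO challenge they were -0.033 to 0.65 for Rrm2 and -0.036 to 0.69 for Cdk1. Plk1 had as few as 3 counts in a library, so depth limits its ratios.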

Other observations

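In WT ID8 3, 121 of the tested genes had a level at least 4 times that of the highest of the other 11 libraries. They included 23 G2/M and 1 S-phase gene of the 37, 44 other mitosis genes, 4 other replication genes, 1 gene of G1 progression and 1 cell cycle brake. The other 47 were in no list, and those named here were chosen after their values were seen. Pclaf, a PCNA-binding factor, was at 367 CPM against 37.7 CPM in the highest other library. The histone gene Hist1h2ae was at 54.4 against 3.69 CPM, and Shcbp1 was at 60.7 against 9.01 CPM. Genes not known for a part in division were also among the 47: Mall, which encodes a membrane protein, was at 69.6 against 11.3 CPM, Ucp1, the uncoupling protein of brown fat, at 23.5 against 5.41 CPM, and Pglyrp1, a peptidoglycan-binding protein of granulocytes, at 54.0 against 12.5 CPM.

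The 70 genes named as clustered histones summed to 296.0 CPM in WT ID8 3, while the other 5 challenged libraries had 61.4 to 94.9 CPM and naive ones 67.4 to 121.5 CPM. In those 5 challenged libraries the 53 other replication genes summed to 1821 to 2546 CPM, above the 867.9 to 1037 CPM of naive libraries. Histone sums thus overlapped between conditions where replication gene sums did not. How well the mRNA library kit captures histone transcripts was not tested, so nothing about S phase is read from this difference.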
